A study of Homo sapiens with 6 samples.

Results

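The 35 genes examined here were a list of genes of the hypoxia response and of glycolysis, chosen by name. Each gene was read on its brightest probe set by the mean of the 6 arrays, and 34 of the 35 had a probe set of their own symbol that was tested, among 12151 genes tested in all. The expression of the remaining gene, CA9, was not analysed here. The cells were HSC-3, an established line of human origin, grown out of a squamous carcinoma of the tongue. The arrays labelled TAT-2 held RNA of HSC-3 cells made to overexpress trypsin-2, a secreted serine protease encoded by PRSS2. The arrays labelled vector held RNA of HSC-3 cells carrying a control vector, described by the submitters as lacking trypsin-2. There were 3 arrays per group, replicates 1 to 3, and both groups were cultured for 48 h in air with carbon dioxide, in the same serum-containing medium with hydrocortisone. No hypoxic treatment is described. The labels do not say whether the lines were single clones or pools, nor whether replicates came from different cultures. The p-values thus rest on the spread among these arrays, part or all of which may be technical.

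Cells sense oxygen through hypoxia-inducible factors, whose alpha subunits (HIF1A among them) are hydroxylated by the EGLN enzymes and then destroyed while oxygen is present. When oxygen falls, the stabilised factor binds short DNA elements and raises genes for glucose uptake, glycolysis, vessel growth and mitochondrial turnover. In squamous carcinomas several of these genes are widely used as hypoxia markers, and glycolytic enzymes are abundant even in well oxygenated carcinoma cultures. HIF1A itself is controlled mainly as a protein, which arrays do not read.

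Arrays of replicate 1 stood apart in both groups. A 28S ribosomal RNA control probe set read 529.5 to 682.5 on the replicate 1 arrays and 2030 to 2537 on the other arrays. The ACTB control probe sets gave a log2 ratio, 3' end over 5' end, of 0.21 to 0.25 in replicate 1 and 0.46 to 0.59 elsewhere. The same ratio of the GAPDH control probe sets went the other way, with 0.032 to 0.090 in replicate 1 and -0.005 to 0.021 elsewhere. Between TAT-2 and vector, exact two-sided permutation tests gave p = 0.6 for 28S, 0.7 for ACTB and 0.4 for GAPDH (3 arrays each). These tests ignored the replicate number. By replicate number, the ACTB ratio was 0.21, 0.46 and 0.57 on TAT-2 arrays and 0.25, 0.50 and 0.59 on vector arrays. The GAPDH ratio was 0.032, -0.005 and -0.004 beside 0.090, 0.006 and 0.021. An 18S control probe set gave 20.1, 105 and 150 beside 36.1, 201 and 167. Each was lower on the TAT-2 array in every replicate number, while 28S was higher in replicate 1 only. Their bearing on the differences between groups was not tested. The brighter of the PRSS2 probe sets, read as a check of the labels, gave 20.4, 13.8 and 14.6 on the TAT-2 arrays and 19.6, 80.8 and 83.2 on the vector arrays, which goes against them (log2 fold change -1.12, adjusted p = 0.467 in limma, and 0.0506 with the replicate number as a block). Every direction here therefore rests on the labels. Of a list of 9 squamous markers, only KRT5, KRT14, SFN, DSG3, DSC3 and CDH1 were read. All 6 were above the filter on low signals (a mean log2 value of at least 4.96). Their summed signal was 19008 to 22043 on the TAT-2 arrays and 16547 to 23762 on the vector arrays, and the median log2 fold change of the 6 was 0.12. Of these only CDH1 was called with the block, at -0.44 (adjusted p = 0.00826 in limma, and 0.527 without the block), while KRT5, DSC3 and KRT14 were at 0.31, 0.25 and 0.22, uncalled. Fibroblast markers summed to 135 to 143 signal units on the TAT-2 arrays and 116 to 140 on the vector arrays over 7 genes. Leukocyte markers summed to 33.0 to 96.7 and 36.2 to 60.8 over the 4 genes read of 6 listed. The 3 endothelial markers summed to 37.5 to 49.5 and 38.7 to 42.4.

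**Figure D1:**
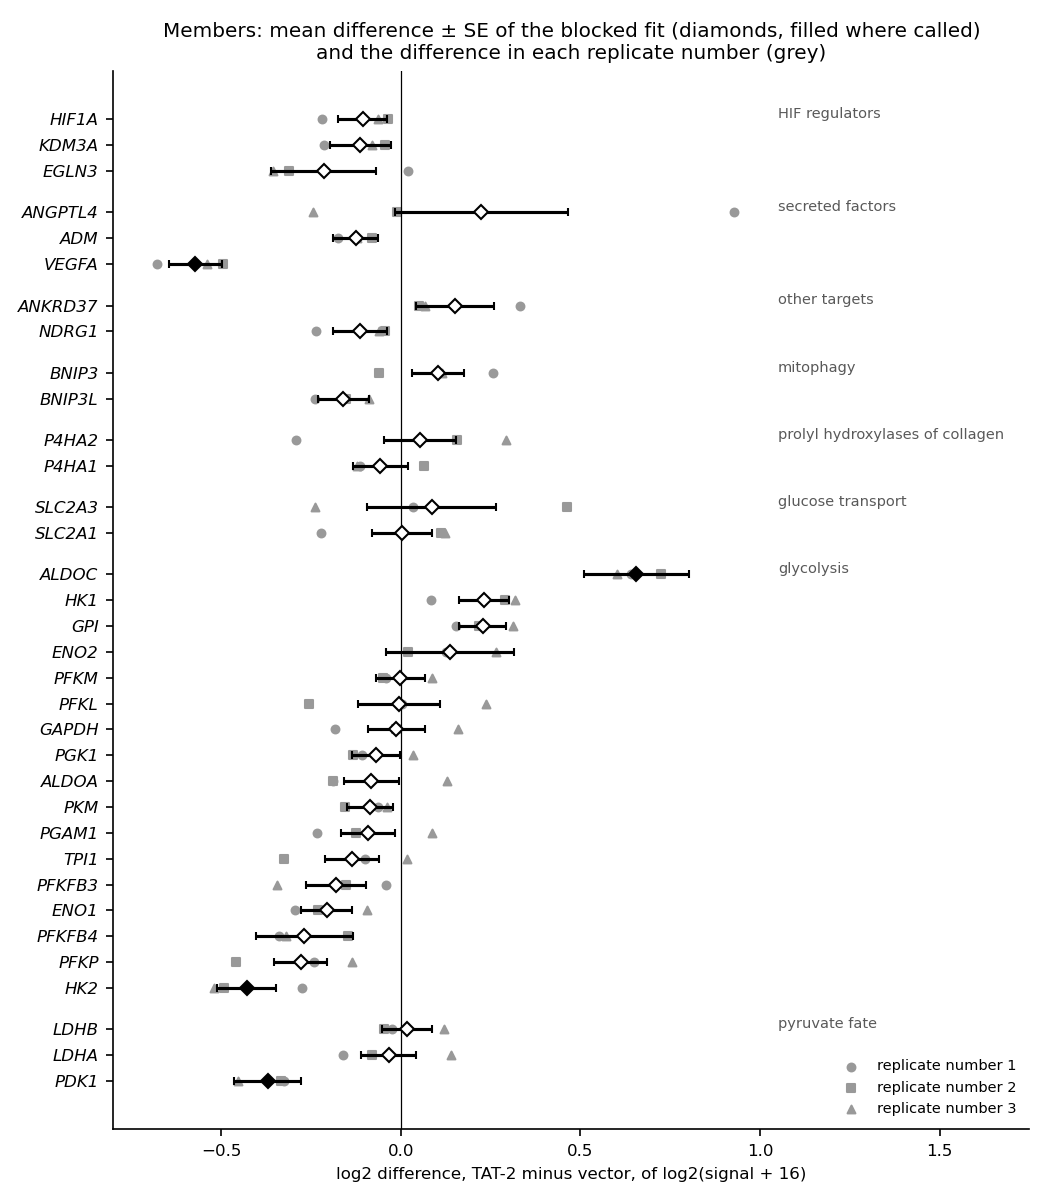
Difference between groups for each of the 34 tested genes, on the scale of log2(signal + 16) along the horizontal axis, TAT-2 minus vector. Diamonds give the mean difference with the SE of the limma fit that holds the replicate number as a block (filled where called), and grey points give replicate numbers 1 (circle), 2 (square) and 3 (triangle). VEGFA, HK2 and PDK1 lie to the left and ALDOC to the right, while most genes lie close to 0.

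VEGFA, the secreted growth factor of blood vessels, fell 1.49-fold on the TAT-2 arrays. HK2, the inducible hexokinase that phosphorylates glucose, fell 1.35-fold, and PDK1, the kinase that turns off pyruvate dehydrogenase, fell 1.29-fold. ALDOC, an aldolase known mainly from brain, rose 1.58-fold. These 4 of 34 genes were called with the replicate number as a block (limma, adjusted p below 0.05 over all tested probe sets), which is 11.8% of the list beside 6.96% of all genes tested. By direction, 3 were lower and 1 higher, beside 3.46% and 3.50% of all genes. Without the block limma called 0 of the 34, where 0.0576% of all genes were called. At an unadjusted p under 0.05 there were 5 of the 34, or 14.7%, without the block, beside 9.38% of all genes, and 9, or 26.5%, with it, beside 22.3%. All folds are on the scale of log2(signal + 16), which understates the change of dim probe sets. In bulk RNA, fewer cells making a transcript and less of it per cell cannot be told apart.

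Promoters of called genes are shown to set the hypoxia response element beside genes that fell and a gene that rose. They are the 250 bases before the gene start, in RefSeq's GRCh38.p14. VEGFA was not matched. Capitals mark the element's core, ACGTG or GCGTG on either strand, and CACGTG counts as 2 overlapping matches.
HK2, chr2:74833877-74834126, plus strand: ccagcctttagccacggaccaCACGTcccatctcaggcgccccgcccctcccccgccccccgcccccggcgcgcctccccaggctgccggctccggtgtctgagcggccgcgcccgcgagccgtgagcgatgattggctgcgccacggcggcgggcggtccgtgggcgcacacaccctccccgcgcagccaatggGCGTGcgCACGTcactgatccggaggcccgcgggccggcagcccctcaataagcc
PDK1, chr2:172555123-172555372, plus strand: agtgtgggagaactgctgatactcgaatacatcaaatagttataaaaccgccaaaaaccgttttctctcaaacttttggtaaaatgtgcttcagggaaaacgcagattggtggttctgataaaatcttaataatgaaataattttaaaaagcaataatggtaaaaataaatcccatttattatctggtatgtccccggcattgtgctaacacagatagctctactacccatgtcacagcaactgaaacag
ALDOC, chr17:28576896-28577145, minus strand: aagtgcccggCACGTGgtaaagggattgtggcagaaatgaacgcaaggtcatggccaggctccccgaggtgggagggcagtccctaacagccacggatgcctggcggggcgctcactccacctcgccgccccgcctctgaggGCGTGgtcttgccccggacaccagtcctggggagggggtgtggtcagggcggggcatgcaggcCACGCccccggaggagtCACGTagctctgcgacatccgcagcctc
The HK2 window held 3 cores, the PDK1 window 0 and the ALDOC window 5. HK2, which fell, and ALDOC, which rose, thus both carry matches. Among the 30 tested members matched, 19 had at least 1 core, or 63.3%, beside 56.8% of 9885 promoters of tested genes and 43.1% of all 27305 promoters. LDHA had 5 cores and BNIP3 6, and neither gene was called. A match describes these letters only. A count of 0, as for PDK1, covers only these 250 bases and does not show that the gene lacks the element elsewhere.

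The shift of the list as a whole was small. The median log2 fold change of the 34 genes was -0.075, with -0.14, -0.071 and -0.0094 in replicate numbers 1, 2 and 3, beside a median of -0.0025 over all genes tested. The log2 fold change was negative in 23 of the 34, or 67.6%, beside 50.5% of all genes. In 28 of the 34 the difference was under 1.2-fold, and in 1 it was over 1.5-fold. The median size of the difference, regardless of sign, was 0.12 for the list and 0.13 for all genes. In 13 of the 34 the TAT-2 array was lower in every replicate number, beside 21.1% of all genes, and in 5 it was higher in every one, beside 21.4%.

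**Figure D2:**
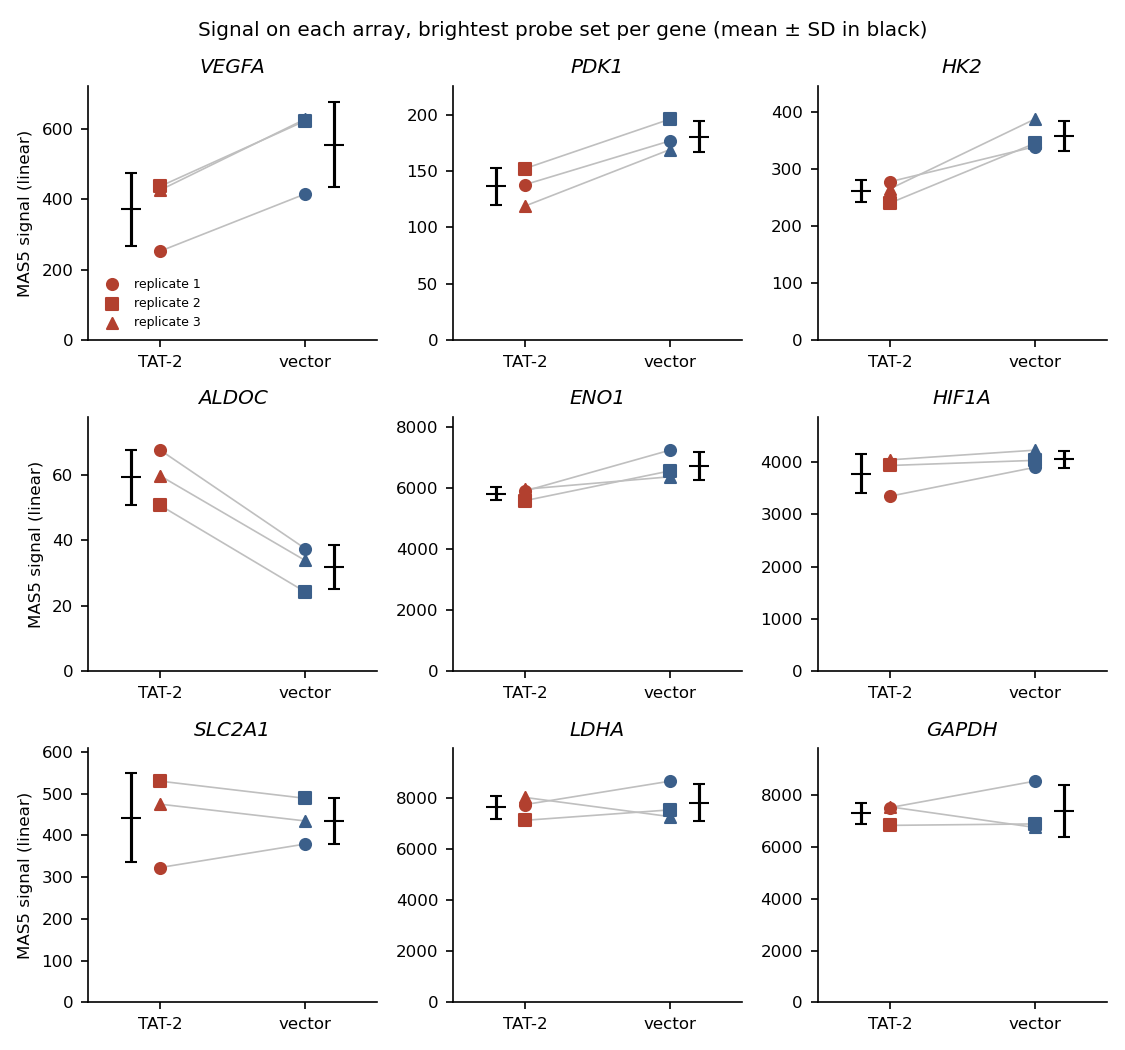
Linear MAS5 signal on each array for 9 genes, TAT-2 at the left and vector at the right of each panel, with grey lines joining arrays of the same replicate number and black bars giving the mean ± SD (n = 3 each). The groups are apart for PDK1, HK2, ALDOC and ENO1, lines run in parallel for VEGFA, and the groups overlap for HIF1A, SLC2A1, LDHA and GAPDH.

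Among the regulators, HIF1A had signals of 3348, 3935 and 4043 on the TAT-2 arrays and 3898, 4033 and 4227 on the vector arrays. The TAT-2 array was the lower in each replicate number, but the groups overlapped. The log2 fold change was -0.11 ± 0.07 (SE with the block, 95% interval -0.25 to 0.04, adjusted p = 0.463 in limma). EGLN3, the oxygen-dependent prolyl hydroxylase that marks the alpha subunits, gave 48.1, 47.5 and 47.4 on the TAT-2 arrays and 47.1, 62.7 and 65.1 on the vector arrays. Its replicate 1 arrays were close together and the vector arrays of replicates 2 and 3 were higher (log2 -0.21 ± 0.15, adjusted p = 0.50 in limma). A dimmer EGLN3 probe set had another pattern, at -0.65, -0.04 and -0.31 in replicate numbers 1, 2 and 3, and was uncalled. KDM3A, a histone H3 lysine demethylase induced by hypoxia, was at -0.11 ± 0.08 (adjusted p = 0.550).

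VEGFA had signals of 253, 437 and 426 on the TAT-2 arrays and 415, 622 and 627 on the vector arrays. Replicate 1 was the lowest of its group on both sides, so the groups overlapped, while the TAT-2 array was lower in each replicate number by 0.68, 0.49 and 0.54 on the log2 scale. The signal averaged 372 ± 103 on TAT-2 and 555 ± 121 on vector arrays (SD, n = 3 each). On the log2 scale it differed by -0.57 ± 0.07 (SE, adjusted p = 0.00144 in limma with the block, and 0.60 without it). Without replicate 1 in both groups it was -0.52 (adjusted p = 0.00547). The other VEGFA probe sets, of lower signal, gave -0.35, -0.25 and -0.15, and none of these was called. All 4 probe sets were thus lower on average, and their names mark them as able to read several transcripts, so which VEGFA isoform is read is not given here.

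The other secreted factors passed no test. ADM, which encodes the vasodilator peptide adrenomedullin, had signals of 2094, 2721 and 2622 on the TAT-2 arrays and 2363, 2877 and 2853 on the vector arrays. It was lower in each replicate number, by little (log2 -0.12 ± 0.06, adjusted p = 0.327 in limma). ANGPTL4, an inhibitor of lipoprotein lipase, was dim, with 27.5, 12.3 and 18.1 on the TAT-2 arrays and 6.90, 12.5 and 24.4 on the vector arrays, and its sign differed between replicate numbers.

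The remaining hypoxia targets were likewise uncalled. NDRG1, a stress-responsive cytoplasmic protein, was at -0.11 ± 0.08 (log2, SE with the block) and ANKRD37, an ankyrin repeat protein, at 0.15 ± 0.11. BNIP3 and BNIP3L, related receptors that direct mitochondria to autophagy, were at 0.10 ± 0.07 and -0.16 ± 0.07, with adjusted p of 0.518 and 0.256 in limma. P4HA1 and P4HA2, the catalytic subunits of collagen prolyl 4-hydroxylase, were at -0.056 ± 0.08 and 0.05 ± 0.10. P4HA2 changed sign between replicate numbers, and its dimmer tested probe set had the opposite sign to the brighter one.

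Glucose enters squamous cells chiefly through SLC2A1, the transporter GLUT1. SLC2A1 had signals of 323, 530 and 475 on the TAT-2 arrays and 379, 489 and 435 on the vector arrays. It was lower on the TAT-2 array in replicate 1 and higher in replicates 2 and 3, so that the mean log2 difference was near 0 (95% interval -0.18 to 0.19 with the block). SLC2A3, the transporter GLUT3, was dim, at 38.8, 48.9 and 21.6 on the TAT-2 arrays and 37.5, 31.1 and 28.3 on the vector arrays, and was uncalled (adjusted p = 0.862 in limma).

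HK2 had signals of 278, 241 and 265 on the TAT-2 arrays and 339, 345 and 388 on the vector arrays. All TAT-2 arrays were below all vector arrays. The signal averaged 261 ± 19.0 on TAT-2 and 357 ± 26.3 on vector arrays (SD, n = 3 each). On the log2 scale it differed by -0.43 ± 0.08 (SE, adjusted p = 0.0119 in limma with the block, and 0.318 without it). Without replicate 2 in both groups it was not called (adjusted p = 0.0687). Both other HK2 probe sets were dim (mean signals 31.1 and 30.7), and each had a positive log2 difference of 0.21, so that the mean over the gene's probe sets left a difference of -0.0024 (adjusted p = 0.993).

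HK1, the constitutive hexokinase, had signals of 1283, 1173 and 1304 on the TAT-2 arrays and 1208, 955 and 1044 on the vector arrays. The TAT-2 array was higher in each replicate number, the groups overlapped, and the gene was not called (log2 0.23 ± 0.07, adjusted p = 0.0848 in limma with the block). GPI, the isomerase that follows hexokinase, was similar in size at 0.23 ± 0.07 (adjusted p = 0.0715). With quantile normalization and the block, HK1 (adjusted p = 0.0458) and GPI (0.0331) were called in limma. The log2 ratio of HK1 to HK2 differed between the groups by 0.36, 0.78 and 0.84 in replicate numbers 1, 2 and 3, with no overlap (exact permutation p = 0.1, the smallest that 3 against 3 arrays allow, and 0.25 adjusted over 10 pairs of related genes). These pairs were chosen after their values were seen.

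Phosphofructokinase, which commits glucose to glycolysis, is made from PFKL, PFKM and PFKP. PFKP, the platelet form, had signals of 2273, 1290 and 1426 on the TAT-2 arrays and 2688, 1779 and 1567 on the vector arrays. It was lower on the TAT-2 array in each replicate number, and replicate 1 was the highest in both groups. Its log2 fold change was -0.28 ± 0.07 with an adjusted p of 0.0533 in limma with the block, just outside the threshold, while PDK1, just inside, had 0.0433. With probe sets averaged within genes the PFKP difference was 0.0068. PFKL and PFKM, the liver and muscle forms, differed by -0.0052 and -0.0012 on the log2 scale, with signs that changed with the scaling of the arrays. PFKFB3 and PFKFB4, which make and remove the activator fructose 2,6-bisphosphate, were at -0.18 ± 0.08 and -0.27 ± 0.14 (adjusted p = 0.282 and 0.329). Both were lower in every replicate number.

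ALDOC had signals of 67.5, 50.7 and 59.7 on the TAT-2 arrays and 37.5, 24.3 and 33.9 on the vector arrays. All TAT-2 arrays were above all vector arrays. The signal averaged 59.3 ± 8.45 on TAT-2 and 31.9 ± 6.82 on vector arrays (SD, n = 3 each). On the log2 scale it differed by 0.66 ± 0.15 (SE, adjusted p = 0.0260 in limma with the block, and 0.307 without it). The gene has a single, dim probe set, and its size depended on the pseudocount, with 0.89 at a pseudocount of 1 and 0.36 at 64. It was not called without replicate 1 or without replicate 2 in both groups (adjusted p = 0.113 and 0.138). ALDOA, the major aldolase of most tissues, had signals of 3717, 2518 and 2576 on the TAT-2 arrays and 4236, 2868 and 2354 on the vector arrays, and was uncalled at -0.08 ± 0.08 (adjusted p = 0.650). The log2 ratio of ALDOC to ALDOA was higher on the TAT-2 arrays by 0.83, 0.91 and 0.47 in replicate numbers 1, 2 and 3, again with exact permutation p = 0.1 (0.25 adjusted over the 10 pairs). PFKL to PFKP (mean difference 0.27) and BNIP3 to BNIP3L (0.26) reached the same p. The HK2 and ALDOC ratios contain the called differences of those genes and are not separate results.

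Between triose phosphate and pyruvate no gene was called. GAPDH, the glyceraldehyde-phosphate dehydrogenase often used as a loading control, had signals of 7512, 6826 and 7542 on the TAT-2 arrays and 8530, 6883 and 6748 on the vector arrays. The groups overlapped and the 95% interval of the log2 difference was -0.18 to 0.16 with the block. The 3 further control probe sets of GAPDH, kept out of the fit, differed by -0.072, -0.040 and -0.053. ENO1, the main enolase, had signals of 5914, 5596 and 5971 on the TAT-2 arrays and 7249, 6570 and 6378 on the vector arrays. All TAT-2 arrays were below all vector arrays, at -0.21 ± 0.07 (adjusted p = 0.128 in limma with the block, 0.00640 with quantile normalization as well, and 0.00696 without replicate 3 in both groups). Without overlap between the groups were 4 of the 34 genes (PDK1, HK2 and ENO1 lower, ALDOC higher), or 11.8%, beside 15.7% of all genes (7.83% lower and 7.87% higher). TPI1, PGK1, PGAM1, ENO2 and PKM ranged from -0.14 to 0.14 on the log2 scale. Signals of GAPDH, LDHA and ENO1 lay between 5596 and 8664, near the highest values of the arrays (10209 to 12091), and whether they were compressed there was not tested.

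At the end of the pathway PDK1 had signals of 138, 152 and 119 on the TAT-2 arrays and 177, 196 and 169 on the vector arrays. All TAT-2 arrays were below all vector arrays. The signal averaged 136 ± 16.7 on TAT-2 and 181 ± 13.9 on vector arrays (SD, n = 3 each). On the log2 scale it differed by -0.37 ± 0.09 (SE, adjusted p = 0.0433 in limma with the block, and 0.527 without it). Over 15 alternatives to the blocked fit, the fit without the block included, the adjusted p ran from 0.0306 to 0.527, and 4 of them called it. It was not called with any replicate number left out (adjusted p = 0.113 to 0.140). The other tested PDK1 probe set was at -0.18 and uncalled. LDHA, the lactate dehydrogenase subunit that hypoxia raises, had signals of 7748, 7132 and 8027 on the TAT-2 arrays and 8664, 7540 and 7277 on the vector arrays. It was lower on the TAT-2 array in replicates 1 and 2 and higher in replicate 3 (95% interval -0.20 to 0.14). LDHB, the other common subunit, was at 0.018 ± 0.07.

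**Figure D3:**
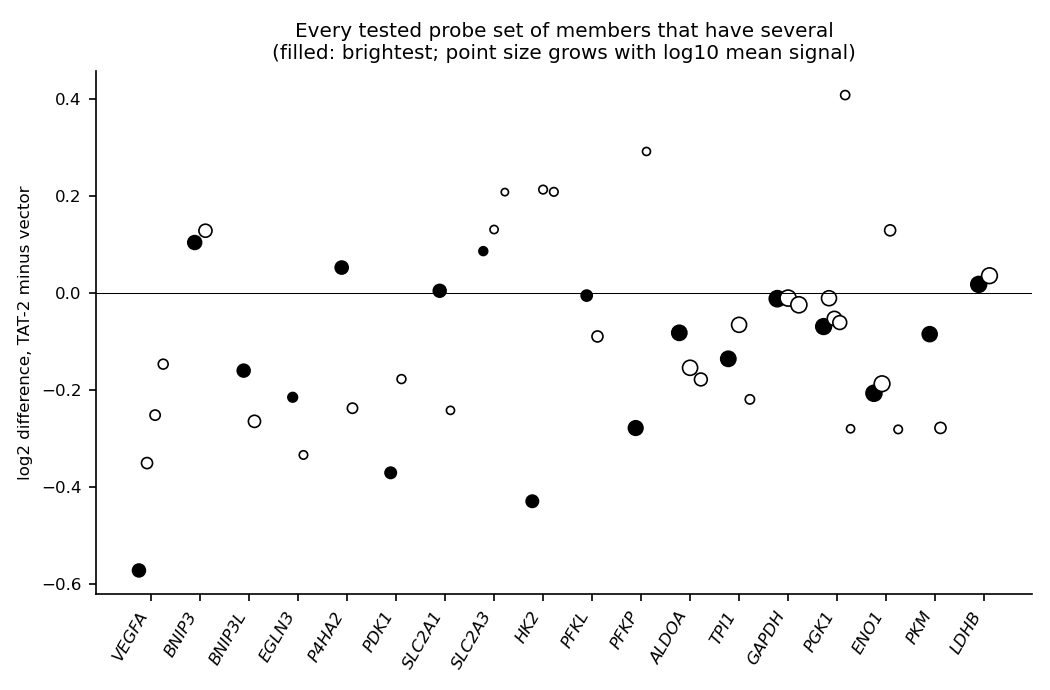
Log2 difference, TAT-2 minus vector, of every tested probe set for the 18 genes that have more than 1, with the brightest probe set filled and point size growing with mean signal. All 4 VEGFA probe sets lie below 0, whereas HK2, PFKP and ENO1 have a bright probe set below 0 and a dim one above it.

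The 34 genes had 72 probe sets besides the GAPDH controls, and 65 of these were tested. Of 18 genes with more than 1 tested probe set, 12 had all of them on the same side of 0 and 6 did not (P4HA2, SLC2A1, HK2, PFKP, PGK1 and ENO1). Among these 65 tested probe sets 4 were called with the block, the brightest of each called gene. The share called among all 27307 tested probe sets was not counted, so these 4 have no background beside them.

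**Figure D4:**
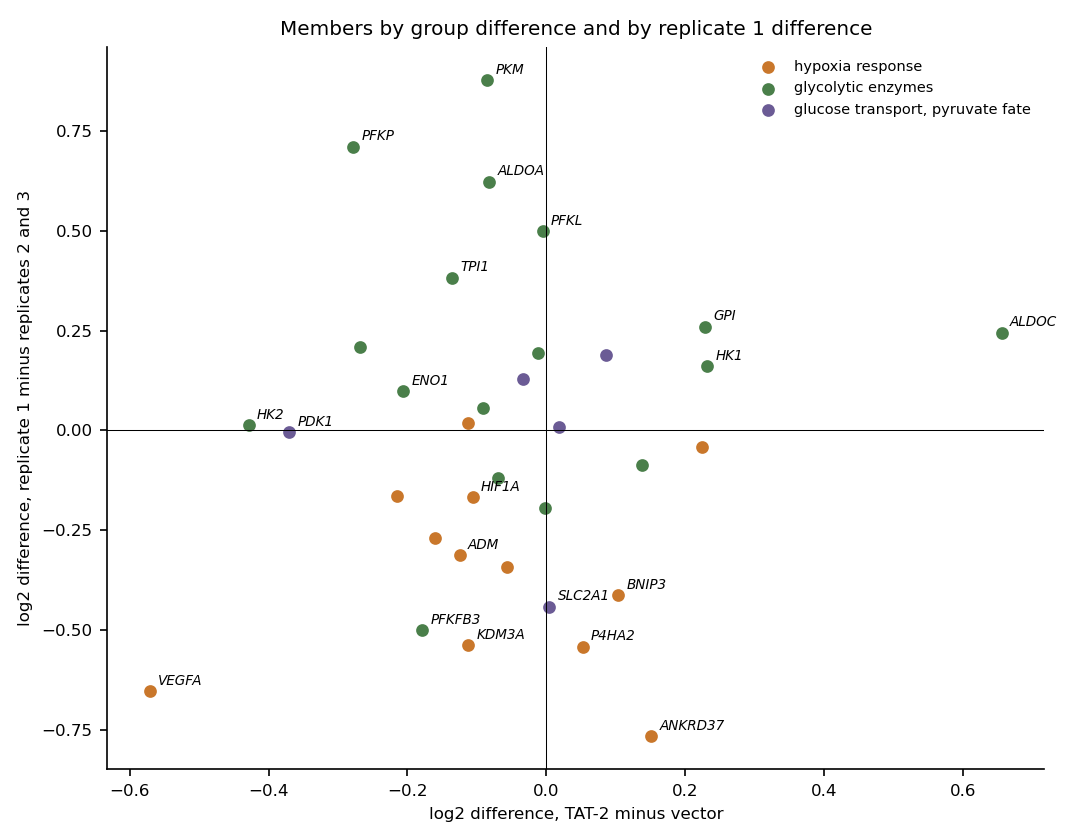
Each tested gene by its log2 difference between TAT-2 and vector (horizontal axis) and between replicate 1 and replicates 2 and 3 (vertical axis), coloured by role. PKM, PFKP and ALDOA lie high and ANKRD37, VEGFA, P4HA2 and KDM3A low.

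Replicate 1 was also set against replicates 2 and 3, a contrast added after the data were seen. Among 12 hypoxia response genes, both replicate 1 arrays lay below the other 4 arrays in 9, or 75%, beside 19.1% of all genes, and limma called 8 of the 12 lower in replicate 1, beside 11.9% of all genes. ANKRD37 showed this with 85.9 (TAT-2) and 64.9 (vector) in replicate 1 and 135, 148, 130 and 141 on the others, a log2 difference of -0.76 ± 0.12 (SE, adjusted p = 0.00112). VEGFA (-0.65), P4HA2 (-0.54), KDM3A (-0.54), BNIP3 (-0.41), P4HA1 (-0.34), ADM (-0.31) and BNIP3L (-0.27) were the other 7. For VEGFA the direction depended on the probe set. Its next brightest probe set was higher in replicate 1, with 142 (TAT-2) and 187 (vector) beside 101, 101, 128 and 137. The one after it was also higher, with 92.0 and 107 beside 68.1, 50.4, 80.4 and 69.6. In the dimmer tested probe sets of P4HA2 and BNIP3L the replicate 1 arrays overlapped the others. In that of BNIP3 both lay below the others.

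Among glycolytic enzymes, 6 were called higher in replicate 1 and 1 lower. Of the 17, both replicate 1 arrays lay above the other 4 in 6 genes, beside 21.4% of all genes, and limma called the same 6 higher, beside 13.2%. PKM, pyruvate kinase, gave 3529 (TAT-2) and 3687 (vector) in replicate 1 and 1824, 1964, 2032 and 2015 on the others (log2 0.88 ± 0.06, adjusted p = 1.61e-05). PFKP (0.71), ALDOA (0.62), PFKL (0.50), TPI1 (0.38) and GPI (0.26) were the other 5. A dimmer PKM probe set overlapped, with 134 and 170 in replicate 1 and 135, 95.8, 146 and 135 on the others. The dimmer PFKP probe set and the dimmest of TPI1 overlapped as well. In the other tested probe sets of ALDOA, PFKL and TPI1 both replicate 1 arrays lay above the others. PFKFB3 (-0.50) and, of the transporters, SLC2A1 (-0.44) were called lower in replicate 1. The lower 28S signal, lower ACTB ratio and higher GAPDH ratio of replicate 1 moved with these differences, and their part in the result was not tested.

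**Figure D5:**
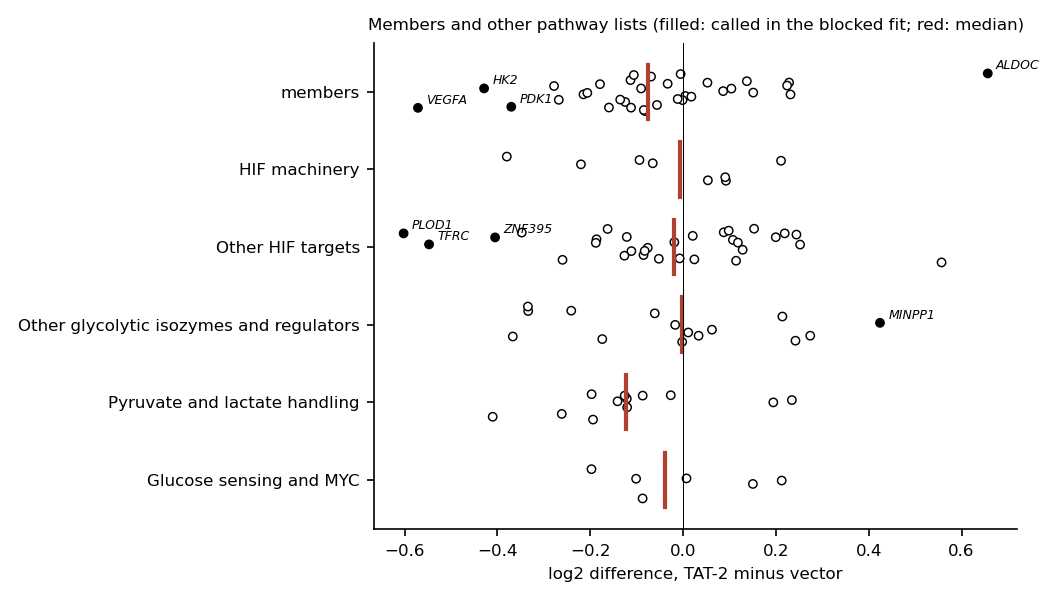
Log2 difference, TAT-2 minus vector, of the 34 members and of 5 further lists of the same pathways (1 point per tested gene, filled where called with the block, red bar for the list's median). All medians lie below 0, the lowest at -0.12, and called genes other than the members are PLOD1, TFRC and ZNF395 on the left and MINPP1 on the right.

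Of 100 further genes of these pathways, none of them in the list above, 72 were tested and 4 were called with the block (3 lower, 1 higher), or 5.56%, beside 6.96% of all genes, with 0 called without it. Their median log2 fold change was -0.057. None of the 8 tested genes of the HIF machinery was called, and EPAS1, the alpha subunit HIF-2, and EGLN1, the main oxygen-sensing hydroxylase, were at 0.09 ± 0.08 and -0.09 ± 0.08 (log2, SE with the block). Among 31 other HIF targets, PLOD1, a collagen lysyl hydroxylase, fell to 96.6 ± 27.1 on the TAT-2 arrays, against 153 ± 26.2 on the vector arrays (SD, n = 3 each, log2 -0.60 ± 0.11, adjusted p = 0.00842 in limma with the block). TFRC, the transferrin receptor, fell by 0.55 on the log2 scale (adjusted p = 0.000881), and ZNF395, a zinc finger protein, fell by 0.40 (adjusted p = 0.0466). LOX, lysyl oxidase, was at 0.56 ± 0.20, uncalled, and was chosen after its values were seen. MINPP1, an inositol polyphosphate phosphatase, was the only call among 15 further glycolytic isozymes and regulators, with a rise of 0.42 ± 0.07 (adjusted p = 0.00826). None of 12 genes of pyruvate and lactate handling and none of 6 of glucose sensing and MYC was called.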

How the data were processed

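RNA was labelled from 2 µg per array. The deposited values are linear intensities, 1 signal per probe set, made by the authors with MAS5 per the submitters' processing notes (no version is stated there). Each array's mean between percentiles 2 and 98 was 99.98, so this scaling was kept. Gene symbols came from the platform annotation for 41097 of 54675 probe sets with 1 symbol, of which 41043 were matched to RefSeq by gene identifier. The 62 control probe sets were left out of the fits.

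Signals were taken as log2(signal + 16) and tested where the mean reached the median of non-control probe sets (4.96, a signal of 15.2), which left 27307. The test was limma 3.58.1 in R 4.3.3 (lmFit, eBayes with an intensity trend), two-sided, with Benjamini-Hochberg adjustment over all tested probe sets at 0.05. It was fitted with group alone and with the replicate number as a block. After subtracting group means, the TAT-2 and vector arrays of numbers 1, 2 and 3 correlated at 0.64, 0.39 and 0.25, each over 0.1, and on that ground blocked values are given. The labels do not say what the numbers share. Differently numbered arrays of replicates 2 and 3 also correlated, at 0.32 and 0.20. The correlations thus do not show that arrays numbered 2, or those numbered 3, were matched to each other. The fit was also run on simulated data. Their noise was drawn from a smooth trend with intensity, so that run could not check the variance trend the fit assumes. Intervals are 95% intervals of the fit, and the number of arrays limits the precision.

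By rule, full values are given for members called by either fit, members whose groups do not overlap, and HIF1A, VEGFA, SLC2A1, LDHA and GAPDH. Array values of EGLN3, ADM, ANGPTL4, SLC2A3, HK1, PFKP, ALDOA, ANKRD37 and PKM are printed outside that rule. Members, lists and rules were chosen with earlier results of these data known. Alternatives were other pseudocounts, filters and scalings, no variance trend, averaging of probe sets within genes, leaving out _x_at and _s_at probe sets, a replicate 1 term (one version added after the data were seen), and arrays left out.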

Additional observations from a re-analysis of the deposited data

How the results depend on the processing

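With the replicate block, 4 of the 34 genes were called. That count was 1 with no filter, 8 with quantile normalization and 2 with probe sets averaged within genes. Over all genes these settings called 270 of 19775, 967 of 12153 and 775 of 12151, beside 846 of 12151 in the blocked fit. With _x_at and _s_at probe sets left out, the count for the list was 2 of 18 genes, beside 517 of 10461 (VEGFA has no other probe set). It was 1 to 5 with a replicate number left out of both groups. It was 0 without the intensity trend of the variance (6 at an unadjusted p under 0.05 in limma) and 0 without the block. Over the alternatives to the blocked fit, the fit without the block included, VEGFA was called in 12 of 14, HK2 in 10 of 15, ALDOC in 9 of 14 and PDK1 in 4 of 15. PFKP, not called in the blocked fit, was called in 5 of 15, and its difference was 0.0068 with probe sets averaged within genes (adjusted p = 0.979 in limma), against -0.28 in the blocked fit. Without the block the count of 0 became 4 with the replicate block and 4 with a replicate 1 term. It remained 0 with any single array left out and under the other alternatives. VEGFA, HK2, PDK1 and ALDOC kept their sign in all of these. Of the other members, 16 changed sign in at least 1 alternative.

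Over all genes, the blocked fit called 846. It called 270 with no filter, 517 with _x_at and _s_at probe sets left out, 7 without the block, 406 to 866 with a replicate number left out (505 without replicate 1, 406 without replicate 2), and 0 without the variance trend (2042 at an unadjusted p under 0.05 in limma). Without the block 7 genes were called (2 higher, 5 lower). Centring the array medians gave 20 (6 higher, 14 lower) and quantile normalization 11 (5 higher, 6 lower). The count was 4 without the variance trend, 29 with probe sets averaged within genes, 31 with _x_at and _s_at probe sets left out, 747 with a replicate 1 term, and 0 to 22 with single arrays left out. The counts of 0 came without TAT-2 or vector replicate 2 or 3, with 779 to 898 genes at an unadjusted p under 0.05 in limma. Causes were not tested. Signals near the filter, as for ANGPTL4 and ENO2, limit what can be detected.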
